A study of Mus musculus with 20 samples.

Results

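Tmprss2, Csta1 and Epcam, 3 genes best known from epithelial cells, are described here across mouse preimplantation development. They were selected for their rise into the blastocyst on these same arrays, so their blastocyst levels are given as a description with no test. All probe sets that the platform's gene annotation assigns to these genes alone were taken, older names included. The 3 genes are among 9607 with a probe set of 1 symbol on the array, and their probe sets number 4 of the 22511 that are not controls: 2 for Tmprss2 (1458347_s_at and 1459510_at), 1 for Csta1 (1435760_at) and 1 for Epcam (1447899_x_at). Of these 4, 3 passed the filter on dim values and 1459510_at did not.

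RNA abundance was measured on 20 Affymetrix MOE430B arrays, with 4 arrays each of oocytes and of 1-cell, 2-cell, 8-cell and blastocyst embryos. All groups share 2 rounds of amplification by in vitro transcription and carry no treatment or genetic change in the labels. The sources used here do not give the mouse strain, the age of the donors, any hormone treatment, the embryos per pool or the hour of collection. No label states that the 4 samples of a stage are separate pools of embryos, so a p-value here covers the spread between samples alone, and that spread may be technical. Values are linear intensities as deposited. The mean left after trimming 2% at each end was 150.02 to 150.04 on every array, and array medians ran from 67.8 to 93.3. The arrays measure RNA and not protein, and they measure whole embryos. Fewer cells of a type and less RNA per cell cannot be told apart in such samples. There are no detection calls, so the lowest intensities have no firm order.

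The outer cells of the mouse embryo polarise at the 8-cell stage and then build the trophectoderm, the first epithelium of development. Tight junctions seal this layer, ion pumps draw fluid across it, and the inner cell mass lies against its inside. Tmprss2 encodes a serine protease anchored in the plasma membrane, found at the surface of epithelia such as prostate, gut and airway. Csta1 encodes a cystatin of the stefin A type, a small cytosolic inhibitor of papain-like cysteine cathepsins. Epcam encodes a cell surface adhesion glycoprotein of epithelia that associates with claudins and tetraspanins and is cleaved by ADAM proteases and gamma-secretase. None of these functions was measured here.

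The promoter sequences of the 3 genes are shown because all 3 had their highest RNA level at the same stage, and the letters before each start can be compared. They come from RefSeq on build GRCm38.p6, cover the 250 bases before the annotated start, and read 5′ to 3′ on the strand of the gene. Tmprss2 lies on the minus strand at chr16:97611196-97611445, Csta1 on the minus strand at chr16:36131190-36131439, and Epcam on the plus strand at chr17:87635729-87635978. Capitals mark matches to the motifs searched.
Tmprss2: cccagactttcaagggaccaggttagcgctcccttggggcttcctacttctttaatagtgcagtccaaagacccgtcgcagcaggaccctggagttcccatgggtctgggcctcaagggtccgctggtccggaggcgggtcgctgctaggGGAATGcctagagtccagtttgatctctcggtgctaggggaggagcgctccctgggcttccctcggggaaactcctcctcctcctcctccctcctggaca
Csta1: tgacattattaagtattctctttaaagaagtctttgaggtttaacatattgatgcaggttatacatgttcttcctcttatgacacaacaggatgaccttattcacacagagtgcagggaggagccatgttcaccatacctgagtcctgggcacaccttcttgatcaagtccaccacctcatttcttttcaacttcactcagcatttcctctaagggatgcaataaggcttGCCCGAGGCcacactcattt
Epcam: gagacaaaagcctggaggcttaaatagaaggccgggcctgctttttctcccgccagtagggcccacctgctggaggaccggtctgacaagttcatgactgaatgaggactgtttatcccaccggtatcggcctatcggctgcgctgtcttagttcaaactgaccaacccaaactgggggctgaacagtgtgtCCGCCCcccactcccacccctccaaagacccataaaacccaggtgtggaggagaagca

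The 3 sequences differ in composition. The Tmprss2 stretch is 61.6% G and C with 10 CG pairs, the Epcam stretch 56.4% with 8, and the Csta1 stretch 42.4% with 1. Over 32851 mouse promoters of the same length the median was 52.4%, with quartiles of 45.2% and 61.2%. A set of 6 letter patterns was searched on both strands. CATTCC, the core read by TEAD factors, matched once in Tmprss2, 100 to 95 bases before the start and on the opposite strand. It is found in 12.6% of all promoters. GCCNNNGGC, read by AP-2 factors, matched once in Csta1, 20 to 12 bases before the start, and is found in 13.7%. GGGCGG, read by SP and KLF factors, matched once in Epcam, 58 to 53 bases before the start on the opposite strand, and is found in 32.7%. AGATAA, read by GATA factors (9.99% of promoters), AACNNGTT (grainyhead-like factors, 3.64%) and TATAAA (the TATA box, 12.4%) had no match in these windows. No motif was matched in more than 1 of the 3 genes. A match is a description of letters, and the start used in the embryo was not measured.

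Tmprss2 RNA stood at a low level through cleavage and was high in every blastocyst sample. For probe set 1458347_s_at the oocyte arrays read 91, 20.5, 99.3 and 120.4, and the 1-cell arrays 59.3, 147.8, 112.4 and 131.1. The 2-cell arrays read 160.7, 139, 192.5 and 130.8, and the 8-cell arrays 67.2, 121.8, 153.7 and 203.2. The blastocyst arrays read 10595.9, 7814.6, 11167.4 and 7126.4. All 4 blastocyst values therefore lay far above each of the other 16. The 4 earlier stages overlapped one another, except that every 2-cell value lay above every oocyte value, a difference that was not tested. Stage means were 82.8 ± 43.3 in oocytes, then 113 ± 38.4, 156 ± 27.6 and 136.5 ± 57.1 from the 1-cell to the 8-cell stage, and 9176 ± 2003 in blastocysts (SD, n = 4 throughout). Ordered by mean, the stages ran oocyte, 1-cell, 8-cell, 2-cell and blastocyst, and no neighbours among the first 4 were separated beyond their spread. Before the blastocyst the probe set sat between the 20.4th and the 75.9th percentile of its array, and in blastocysts between the 99.8th and the 99.9th.

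Changes between stages are differences of mean log2(intensity + 20), a scale that understates the change of dim genes. For 1458347_s_at the change was 0.46 ± 0.33 (SE) from oocyte to 1-cell (adjusted p = 0.54), 0.45 ± 0.33 from 1-cell to 2-cell (adjusted p = 0.385) and -0.24 ± 0.33 from 2-cell to 8-cell (adjusted p = 0.651), all from limma over 15234 probe sets. None of these changes passed the threshold. The last of them changed sign, to 0.02 with an adjusted p of 0.977, when 8-cell replicate 1 was left out. From 8-cell to blastocyst the difference was 5.93 ± 0.33, a 67.2-fold ratio of mean intensities, and it ranked number 2 of the 15234 differences at that step. This rank describes the choice of the gene and is not evidence for it.

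The other Tmprss2 probe set did not show this course. Probe set 1459510_at read 16.6, 19, 22.6 and 19 in oocytes, 22.5, 20.6, 17.4 and 31.2 at the 1-cell stage, and 33.1, 19.3, 90.7 and 24.6 at the 2-cell stage. It read 23, 11.6, 20.2 and 13.2 at the 8-cell stage and 16.3, 19.8, 79.3 and 17.6 in blastocysts. Only 2-cell replicate 3 reached the median of the whole table, 82.6, so the probe set was not tested. Every stage overlapped its neighbour in the order of means, and the highest mean was 41.9 ± 33.0 at the 2-cell stage. In blastocysts the mean was 33.3 ± 30.7, with blastocyst replicate 3 standing apart from the other 3. Both probe sets carry the symbol Tmprss2 only, and the sources used here do not say which transcript each reads. Every Tmprss2 statement that follows rests on 1458347_s_at.

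**Figure D1:**
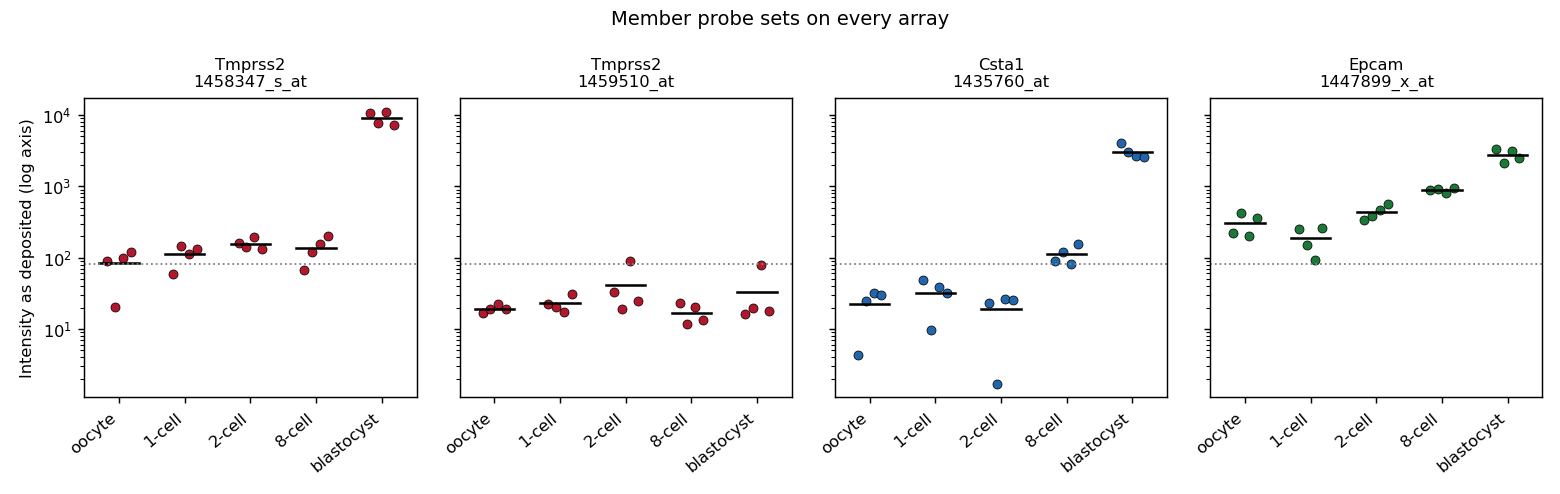
Intensity as deposited, on a log axis, of the 4 probe sets on each of the 20 arrays. Points are arrays, bars are means of the 4 arrays of a stage, and the dotted line is the table median of 82.6. The blastocyst arrays stand above all others for 3 of the 4 probe sets, the 8-cell arrays stand above the earlier stages for Csta1 and Epcam, and the second Tmprss2 probe set stays near the low end.

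Csta1 RNA was dim in the oocyte and the first cleavage stages, was higher at the 8-cell stage and higher again in blastocysts. The oocyte arrays read 4.3, 24.3, 32.2 and 29.9, the 1-cell arrays 48.6, 9.7, 39.1 and 31.8, and the 2-cell arrays 22.8, 1.7, 26.6 and 25.4. The 8-cell arrays read 90.1, 119.1, 81 and 153.4, and the blastocyst arrays 3989.3, 3033.9, 2667 and 2568.4. The oocyte, 1-cell and 2-cell samples overlapped, every 8-cell sample lay above all of them, and every blastocyst sample lay above every 8-cell sample. Means were 22.7 ± 12.7, 32.3 ± 16.6, 19.1 ± 11.7, 110.9 ± 32.7 and 3065 ± 648 in order of development (SD, n = 4). The order of means was 2-cell, oocyte, 1-cell, 8-cell and blastocyst, with no separation among the lowest 3. On its own array the probe set stood between the 45.8th and 66.8th percentile at the 8-cell stage and between the 99.3rd and 99.5th in blastocysts.

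Before the blastocyst, the step from 2-cell to 8-cell was the one at which Csta1 passed the test. It rose by 1.77 ± 0.32 (SE; limma, adjusted p = 0.000145), and no fold is given because the 2-cell values are near background. This p-value is limited in a pair of ways. Csta1 reached 82.6 on 7 arrays, the 4 of blastocysts and 3 of the 8-cell stage, so it entered the test only through the stages where it is high, and the 8-cell arrays are shared with the step on which the gene was selected. With no filter on dim values the adjusted p was 0.000246. At this step 14.1% of all tested probe sets rose and 13.4% fell, 2155 against 2037, so such a call is common there. The split was 2150 against 2207 after quantile normalization and 1775 against 2226 with arrays centred on their medians. Without 2-cell replicate 2, which read 1.7, the rise was 1.51 with an adjusted p of 0.000971. The earlier steps did not pass, at 0.29 ± 0.32 from oocyte to 1-cell (adjusted p = 0.737) and -0.42 ± 0.32 from 1-cell to 2-cell (adjusted p = 0.423). From 8-cell to blastocyst the difference was 4.57 ± 0.32, a 27.6-fold ratio of means and number 5 of 15234 by size.

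Mouse Csta1 lies at the edge of a cluster of stefin genes on chromosome 16. In the RefSeq gene order on GRCm38.p6 the next 10 genes on one side are Stfa2l1, Cstdc4, Csta3, Csta2, Stfa1, Cstdc3, Cstdc6, Cstdc5, Gm7260 and Stfa2. Such close relatives can share probe sequence, and only Stfa2l1 has a probe set of its own with 1 symbol. Stfa2l1 averaged 8.68, 23.0, 10.8, 50.9 and 22.5 from oocyte to blastocyst and was too dim to be tested. Its blastocyst mean lay below its 8-cell mean, unlike that of Csta1. How much of the Csta1 signal comes from other stefins was not tested.

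Epcam RNA was already well within the measured range in oocytes and rose in steps. The oocyte arrays read 219.2, 429.3, 199 and 358.9, the 1-cell arrays 254.7, 152.4, 92.5 and 260, and the 2-cell arrays 336, 389.4, 459.4 and 565.6. The 8-cell arrays read 886.1, 931.3, 815.1 and 941.2, and the blastocyst arrays 3352.5, 2105.5, 3113.7 and 2486.1. The 1-cell samples lay below all 2-cell samples, the 2-cell below all 8-cell and the 8-cell below all blastocyst samples, while oocytes overlapped both the 1-cell and the 2-cell stage. Means were 301.6 ± 111 in oocytes, 189.9 ± 81.7, 437.6 ± 99.2 and 893.4 ± 57.5 in turn at the cleavage stages, and 2764 ± 571 in blastocysts (SD, n = 4). All 20 arrays were above 82.6. Epcam sat between the 78.6th and 91.0th percentile of the oocyte arrays, at the 57.4th to 83.9th at the 1-cell stage, and at the 96.6th to 97.0th at the 8-cell stage.

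Epcam rose at both cleavage steps. The change from 1-cell to 2-cell was 1.19 ± 0.26 (SE; limma, adjusted p = 0.00127), a 2.30-fold ratio of means, against a background of 12.2% of probe sets rising and 9.34% falling at this step. With arrays centred on their medians the split of calls at this step turned from 1859 higher and 1423 lower to 1357 higher and 1985 lower, and the Epcam rise passed there as well, as it did under each scaling tried. From 2-cell to 8-cell the change was 1.02 ± 0.26 (limma, adjusted p = 0.00431), a 2.04-fold ratio, where 14.1% of probe sets rose and 13.4% fell. This p-value is limited, as for Csta1, because the 8-cell arrays are shared with the step on which Epcam was selected. The difference from oocyte to 1-cell, -0.64 ± 0.26, did not pass (limma, adjusted p = 0.168). At that step 2.67% of probe sets rose and 4.26% fell, and without 1-cell replicate 2 the number that rose was 257 in place of 406. The difference into the blastocyst was 1.59 ± 0.26, a 3.09-fold ratio, number 354 of 15234 by size. The probe set is of the x_at type, whose probes can match transcripts of other genes, and it is the only Epcam probe set on the array.

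**Figure D2:**
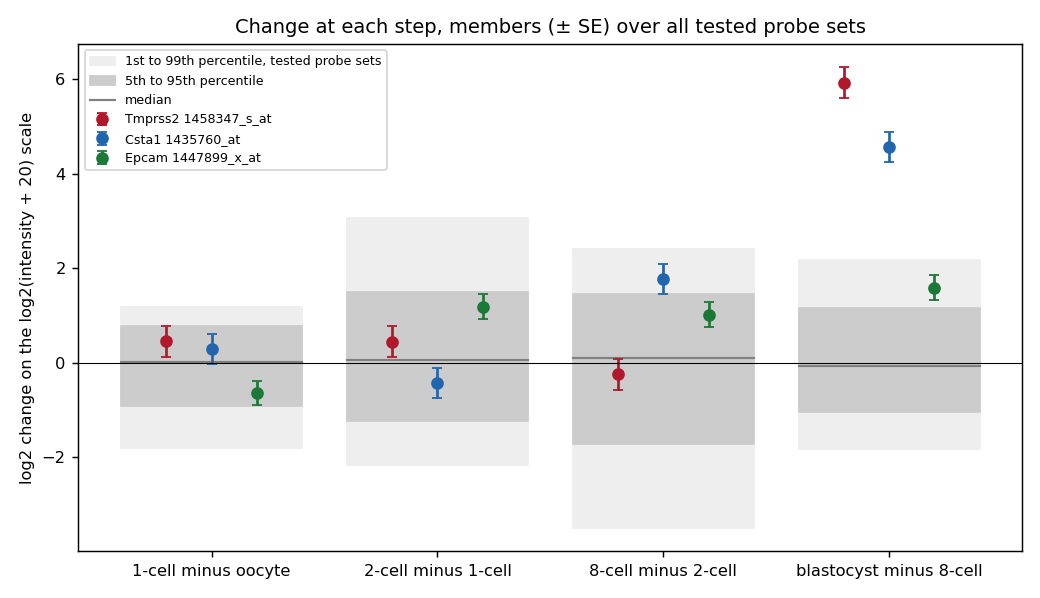
Change in mean log2(intensity + 20) at the 4 steps for Tmprss2 (1458347_s_at), Csta1 and Epcam, with bars for the SE of the fit. Grey bands give the 1st to 99th and the 5th to 95th percentile of all 15234 tested probe sets and the grey line their median. Csta1 alone lies above the dark band from 2-cell to 8-cell, at 1.77, and all 3 genes lie above it from 8-cell to blastocyst, the step used to select them.

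By the 8-cell stage Epcam had covered 49.7% of its log2 distance from oocyte to blastocyst, Csta1 26.5% and Tmprss2 10.1%. These shares include the blastocyst values and are descriptions. The whole distance was 6.60 for Tmprss2, 6.21 for Csta1 and 3.16 for Epcam on the log2 scale. All 3 genes had their 4 blastocyst arrays above their 4 8-cell arrays, as did 8.84% of tested probe sets, and nothing is read from that count because it is how they were chosen.

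Whether the genes changed unequally before the blastocyst was tested on the log2 difference between a pair of genes on each array, with 9 two-sided exact permutation tests over the arrays. With 4 arrays against 4 the smallest p is 0.0286. The pairwise differences within a step depend on one another, so the tests are not separate results. The 8-cell arrays are also shared with the step on which the genes were selected. From 2-cell to 8-cell the Tmprss2 change minus the Csta1 change was -2.01 ± 0.34 (SE), the Tmprss2 change minus the Epcam change was -1.26 ± 0.36, and the Csta1 change minus the Epcam change was 0.75 ± 0.29. Each of these reached the smallest exact p, and each had an adjusted p of 0.0644, which misses 0.05. At least 6 of the 9 tests would have had to reach the smallest p for any to pass, and 4 did, so unequal change is not shown by these tests and equal change is not either. From 1-cell to 2-cell the Csta1 change minus the Epcam change was -1.61 ± 0.45 (exact p = 0.0286, adjusted p = 0.0644). The remaining 5 tests gave exact p-values of 0.0857 to 0.743.

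The known companions of the 3 proteins were then read from lists grouped by role, with the highest probe set standing for a gene and Tmprss2, Csta1 and Epcam left out. The lists were written with results of these arrays known. The adjusted p-values of listed genes, and the counts that rose or fell, are therefore descriptions and not independent tests. A list is described by its counts and its median. These stand beside the median over all tested probe sets, which was -0.07 from 8-cell to blastocyst. At that step 7.98% of probe sets rose and 6.58% fell. The array holds only part of each list, and Krt8, Krt18, Cdh1, Cdx2, Cldn7, St14 and Spint1 are among the listed genes without a probe set of 1 symbol here.

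Of 29 membrane-bound serine proteases and Kunitz inhibitors, the relatives and antagonists of Tmprss2, 7 were on the array and 3 were bright enough to test. Tmprss11a, a protease of the same transmembrane family, was high before the 8-cell stage and low in blastocysts. Its means were 2573 ± 435.5, 3720 ± 530.7 and 4881 ± 480.5 from oocyte to 2-cell, then 141.1 ± 69.7 at the 8-cell stage and 39.9 ± 17.6 in blastocysts (SD, n = 4). It fell by 5.06 on the log2 scale from 2-cell to 8-cell (SE 0.27; limma, adjusted p = 2.98e-13) and changed by -1.34 ± 0.27 into the blastocyst (adjusted p = 0.000735), where its arrays overlapped those of the 8-cell stage. Tmprss6, a membrane protease of iron metabolism, and Prss41 did not pass at the last step, at 0.24 (adjusted p = 0.623) and 0.39 (adjusted p = 0.192). The median of the 3 was 0.24.

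Of 43 cystatins and cathepsins, listed as relatives or targets of Csta1, 11 were on the array and 8 were tested. All 8 were cathepsins, so no cystatin was tested, and Ctsa among them is not a cysteine protease. Cathepsin H (Ctsh), a lysosomal aminopeptidase, was the member that fell into the blastocyst, by 1.70 on the log2 scale (SE 0.19; limma, adjusted p = 5.6e-07). It fell at every step, from 3886 ± 204.5 in oocytes through 2094 ± 425, 1153 ± 265.2 and 719.5 ± 236.1 to 200.5 ± 26.0 in blastocysts (SD, n = 4), with adjusted p-values of 0.00328, 0.00189 and 0.00902 at the earlier steps. The fall of Ctsh was thus not particular to the steps at which Csta1 was higher at the later stage, and a link between these genes was not tested. The other 7 did not pass, among them Ctsc at -0.84 (adjusted p = 0.0577), Ctsf at 1.15 (adjusted p = 0.196) and Ctsl at 0.80 (adjusted p = 0.235). The median of the 8 was -0.30. The Ctsh probe set is of the x_at type, and without such probe sets no member of the list was called. The number that fell became 2 without 1-cell replicate 4 or without blastocyst replicate 3.

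Of 25 EpCAM partners and processing enzymes, 8 were on the array and 6 were tested, of which 2 rose into the blastocyst. Tspan8, a tetraspanin that binds EpCAM in carcinoma cells, went from 237.8 ± 70.9 to 669 ± 162, a rise of 1.42 ± 0.27 (SE; limma, adjusted p = 0.000582). Its earlier steps did not pass. Psenen, a subunit of the gamma-secretase that cleaves EpCAM within the membrane, rose by 1.46 ± 0.29 (adjusted p = 0.00065), from 2125 ± 230.9 to 5934 ± 1031. It had fallen at both earlier steps at which Epcam rose: it fell by 1.36 from 1-cell to 2-cell (adjusted p = 0.000887) and fell by 1.33 from 2-cell to 8-cell (adjusted p = 0.000883), and its oocyte mean of 17420 ± 2509 was its highest. Cd44, Aph1b, Lef1 and Elavl1 did not pass, and the median of the 6 was 0.22.

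Junction and polarity genes gave the epithelial setting. Of 74 listed junction and keratin genes, 21 were on the array and 18 were tested. From 8-cell to blastocyst 5 rose, the other 13 did not pass, and the median was 0.48. Magi3, a scaffold of tight junctions, rose by 4.10 ± 0.20 (SE; limma, adjusted p = 5.6e-13), from 23.8 ± 3.28 to 743.3 ± 154.5. It had started at 703 ± 171.5 in oocytes and fallen to the 8-cell stage, so its blastocyst level was a return and not a first appearance. The polarity protein Pard3 rose by 0.98 ± 0.19 (adjusted p = 0.000664), the adherens junction protein afadin (Afdn) by 0.80 ± 0.17 (adjusted p = 0.00171) and the claudin Cldn12 by 0.90 ± 0.23 (adjusted p = 0.00871). Cingulin (Cgn), named after its values were seen, rose by 0.71 ± 0.20 (adjusted p = 0.0181), and its adjusted p became 0.068 without 8-cell replicate 1, 0.0682 without 8-cell replicate 3 and 0.0913 without blastocyst replicate 4. Afdn and Cgn had been about as high before, at 1178 ± 187.5 and 825 ± 98.0 at the 1-cell stage. Their blastocyst means were 1059 ± 158.5 and 944.7 ± 316.5 (SD). Pard3 and Cldn12 averaged 440.2 ± 62.2 and 402 ± 89.0 in oocytes against 632.6 ± 62.4 and 898.9 ± 228.6 in blastocysts. Occludin (Ocln) stood at -0.02 (adjusted p = 0.979) and the adhesion receptor Cxadr at 0.83 (adjusted p = 0.0744).

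Part of the same 18 junction genes changed at the earlier steps. From 1-cell to 2-cell 2 rose, 8 fell and 8 did not pass, with a median of -0.52 against 0.07 for all probe sets, of which 12.2% rose and 9.34% fell. From 2-cell to 8-cell 9 rose, 2 fell and 7 did not pass, with a median of 0.62 against 0.10 for all probe sets, of which 14.1% rose and 13.4% fell. The array-wide split turns at both steps with arrays centred on their medians. The list then had 2 rising and 8 falling at the earlier step and 7 rising and 2 falling at the later one, a check added after seeing the data.

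Of 41 trophectoderm factors 14 were on the array and all of these were tested. From 8-cell to blastocyst 4 rose, 1 fell and 9 did not pass, with a median of 0.41. Klf6 counts among the 9 by a probe set that averaged 101.8 and 158.8 at the 8-cell and blastocyst stages. Another Klf6 probe set, named below, averaged 28.7 and 654.7 there. Vgll3, a cofactor of TEAD proteins, rose by 3.67 ± 0.27 (SE; limma, adjusted p = 5.63e-10), from 73.5 ± 34.0 to 1133 ± 262.7. None of its earlier steps passed, as for Tmprss2. Its oocyte, 1-cell and 2-cell arrays read at most 79.1, below the filter level, so Vgll3 entered the tests only through later arrays. Tead1 rose at both late steps, by 1.71 ± 0.23 into the 8-cell stage (adjusted p = 3.3e-06) and by 1.31 ± 0.23 into the blastocyst (adjusted p = 0.000264). The prostaglandin E synthase Ptges rose by 2.38 ± 0.40 (adjusted p = 0.000131), and Tspan8, on this list too, was the fourth. Esrrb, a nuclear receptor named after its values were seen, was the member that fell (-0.74 ± 0.18, adjusted p = 0.0044), and it was not counted without x_at and s_at probe sets.

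Of 29 genes listed for pluripotency or for the inner cell mass, the other lineage of the blastocyst, 9 were on the array and tested. From 8-cell to blastocyst 4 rose, 2 fell and 3 did not pass, with a median of 1.18. L1td1, an RNA-binding protein of pluripotent cells, rose by 3.82 ± 0.34 (SE; limma, adjusted p = 1.53e-08), the cytokine receptor subunit Il6st by 1.95 ± 0.36 (adjusted p = 0.000361), the DNA demethylating enzyme Tet1 by 1.44 ± 0.27 (adjusted p = 0.000464) and the Nodal antagonist Lefty2, named after its values were seen, by 1.71 ± 0.47 (adjusted p = 0.0132). Lefty2 reached the filter level only on the blastocyst arrays, at 91.1 to 179.8, and on 8-cell replicate 4, at 131.3. Its 8-cell and blastocyst arrays thus overlapped, and its other 8-cell arrays read 10.6 to 11.4, near background. Klf17 fell by 4.32 (SE 0.20, adjusted p = 2.1e-13) and Esrrb, on both lists, fell by 0.74. Klf17 was highest at the 2-cell stage, at 10420 ± 2017, and averaged 94.1 ± 38.9 in blastocysts (SD). Without x_at and s_at probe sets 1 member of this list fell. Summed over the genes on the array, trophectoderm factors read 3341 to 4043 on the 8-cell arrays and 6362 to 8446 on the blastocyst arrays. Tead1 alone read 743.4 to 1376.1 and 2202.0 to 3864.9, and Vgll3 42.8 to 110.4 and 916.7 to 1514.1. Of the 14 trophectoderm factors 9 did not pass and 1 fell. Genes of the inner cell mass and pluripotency list read 4365 to 5271 and 7022 to 15110 in the same order. L1td1 alone read 233.4 to 613.4 and 3049.1 to 11384.8, while the 2 members that fell went the other way. The sums were not recomputed without Tead1, Vgll3 or L1td1, so no rise of a whole list is read from them.

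**Figure D3:**
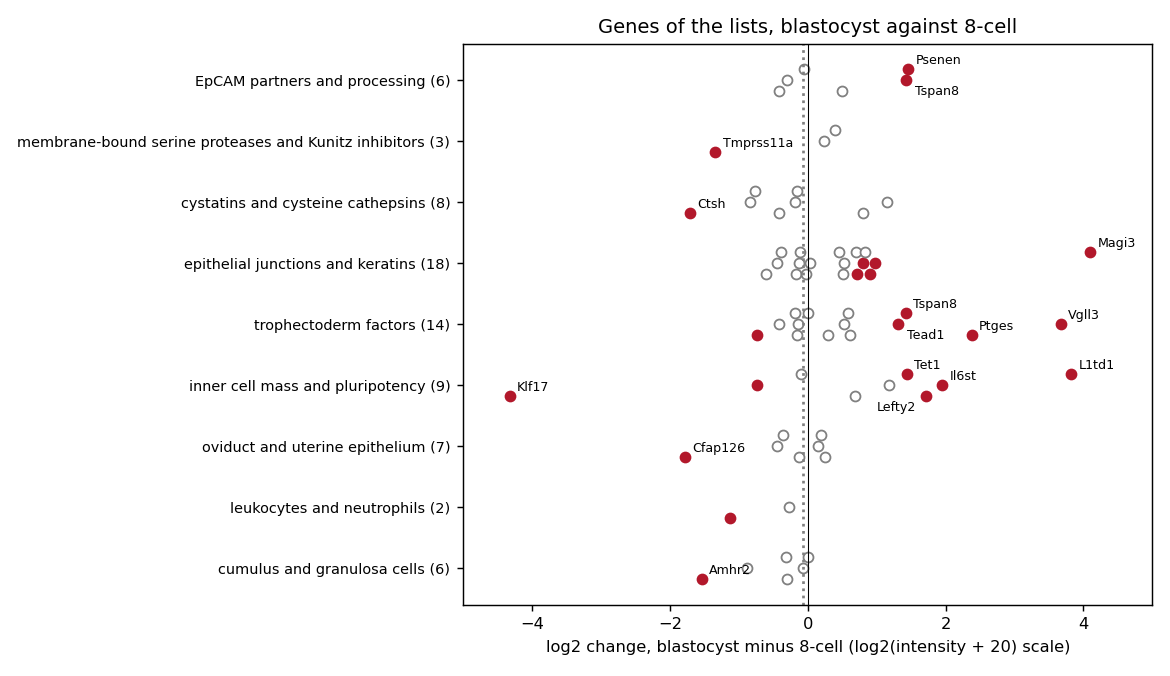
Log2 change from 8-cell to blastocyst of every tested gene of the 9 lists, with the number tested in brackets. Filled points passed the threshold of 0.05 on the adjusted p (limma), open points did not, and the dotted line is the median of all tested probe sets, -0.07. Vertical offsets only separate points. Magi3 at 4.10, L1td1 at 3.82 and Vgll3 at 3.67 stand at the right, and Klf17 stands farthest to the left at -4.32.

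Markers of other cells that could cling to collected embryos were read in the same way, because the 3 genes are also expressed in other epithelia and stefins in blood cells. Their summed intensity was lower in blastocysts than at the 8-cell stage for the first and the last of 3 lists and overlapped for the leukocyte list. Over 11 of 29 oviduct and uterine genes it was 1303 to 1557 on the 8-cell arrays and 942.1 to 1146 on the blastocyst arrays. Over 3 of 36 leukocyte genes it was 141.3 to 226.3 and 80.9 to 188.2, and over 7 of 27 cumulus and granulosa genes 1685 to 2179 and 1077 to 1406. Each list had 1 member that fell into the blastocyst, and its other tested members did not pass. Cfap126, a protein of motile cilia, fell by 1.78 (SE 0.36, limma, adjusted p = 0.000976). Laptm5, a lysosomal protein of leukocytes, fell by 1.12 (SE 0.34, adjusted p = 0.0237), and Amhr2, the receptor for anti-Müllerian hormone, fell by 1.54 (SE 0.17, adjusted p = 3.63e-07). Without these 3 genes, a check added after seeing the data, the sums of the 8-cell and the blastocyst arrays overlapped, at 957.3 to 1206 and 909.3 to 1077 for the oviduct and uterine list, 23.6 to 81.0 and 40.8 to 94.9 for the leukocyte list and 1050 to 1344 and 834.2 to 1124 for the cumulus list. Their part in the levels of Tmprss2, Csta1 and Epcam was not tested. The Laptm5 call was lost without 8-cell replicates 1 or 4 or blastocyst replicates 1 or 2, at adjusted p-values of 0.057 to 0.106, and Amhr2 rests on an x_at probe set. The brightest markers in blastocysts were Pgr at 266.3 ± 61.8 and Dnah9 at 227.5 ± 75.04 for the reproductive tract, Laptm5 at 62.8 ± 37.3 and the untested Ptprc at 43.9 ± 23.6 for leukocytes, and Foxl2 at 624.1 ± 148.9 and Amhr2 at 250.3 ± 24.9 for cumulus cells. No marker on the array was listed at 0, and most of each list was not measured.

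The genes whose profile was most like each of the 3 were found by Pearson correlation of log2(intensity + 20) over the 20 arrays. They came from 8748 tested probe sets with 1 symbol, and 1 probe set per gene was named. Probe sets of the x_at type, genes with only a clone name and the 3 genes themselves were left out of that pool. These correlations are carried largely by the 4 blastocyst arrays that all genes share and are a description. Most like Tmprss2 were Vgll3 (r = 0.967), the peptide transporter Slc15a2 (0.962), the membrane protein Tmem125 (0.956), the mitochondrial translation factor Mtif2 (0.955), Klf6 (0.955) and the heparan sulfate sulfotransferase Hs3st3b1 (0.949). Slc15a2 averaged 198.4 in oocytes and 375.1 at the 8-cell stage against 6745 in blastocysts, and Tmem125 19.6, 35.8 and 957.4. The Klf6 probe set in question read 654.7 in blastocysts, while the Klf6 probe set that stood for the gene among the trophectoderm factors did not pass at the last step (0.59, adjusted p = 0.3).

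Most like Csta1 were the chromodomain protein Cdyl2 (r = 0.967), Plekhh1 (0.966), Slc15a2 (0.966), the deubiquitinase Otud7b (0.962), Niban1 (0.962) and Mtif2 (0.960). Most like Epcam were Magt1 (r = 0.955), a subunit of the glycosylation machinery, the secretory pathway GTPase Sar1a (0.954), the myristoyltransferase Nmt2 (0.946), the lysosomal protein prosaposin (Psap, 0.946), Efhd2 (0.944) and Nudcd1 (0.941). The Magt1 means were 424.1, 250.5, 746.5, 1210 and 3387 from oocyte to blastocyst. Slc15a2 and Mtif2 were near both Tmprss2 and Csta1, whereas no gene near Epcam was near either. The 8-cell mean stood above the 2-cell mean for every gene named as near any of the 3, from 196.3 to 256.3 for Mtif2 and from 15.4 to 66.4 for Cdyl2, for example. The median r over all 8748 was 0.029 for Tmprss2, 0.036 for Csta1 and 0.088 for Epcam. The names depend on the measure: of the 6 genes, Spearman's correlation kept none for Tmprss2 and Csta1 and 1 for Epcam, and correlation over the 5 stage means kept 2, 1 and none in turn.

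**Figure D4:**
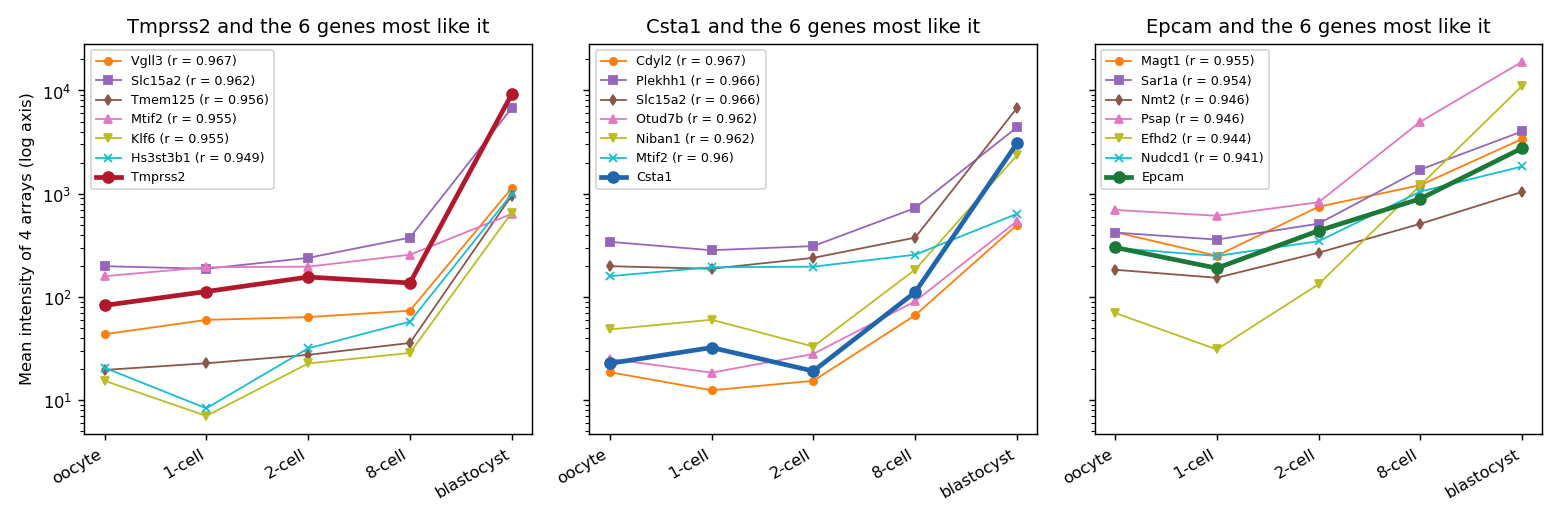
Mean intensity of 4 arrays per stage, on a log axis, for Tmprss2, Csta1 and Epcam (thick lines) and the 6 genes most like each (thin lines, with Pearson's r over 20 arrays). Every line is highest in blastocysts and stands higher for 8-cell than for 2-cell embryos, apart from that of Tmprss2 itself, and Slc15a2 and Mtif2 are drawn beside both Tmprss2 and Csta1.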

How the data were processed

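The deposited values are linear intensities, 1 per probe set, made by the authors from 20 MOE430B arrays. The sources used here do not give the scanner software, the summary of probes, the scaling target or detection calls. Stages and replicate numbers came from the sample titles. Probe sets were named through the platform annotation, with symbols updated by Entrez identifier; of 22511 probe sets, 14661 carry 1 symbol (14486 found in the RefSeq gene table), 245 several and 7605 none, and only those with 1 were named.

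Intensities were taken to log2(value + 20). Probe sets at or above the table median of 82.6 on 4 or more arrays entered the tests. Stage means were fitted to all 20 arrays with limma 3.58.1 in R 4.3.3 (lmFit, eBayes with an intensity trend), with Benjamini-Hochberg adjustment within each of 4 consecutive comparisons and a threshold of 0.05. Exact permutation tests used scipy 1.17.1. The script was tested on simulated data.

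The 3 genes and the lists were chosen with earlier results of these data known. Besides them, the text names up to 4 called genes per list with the smallest p, or, of other cells' lists, the 2 brightest in blastocysts, and the 6 genes most like each of the 3; others are marked. Alternatives changed the pseudocount, filter, scaling, trend, array weights, replicate block, probe set types and measure of likeness, and left out each array. The number of arrays limits the precision.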

Additional observations from a re-analysis of the deposited data

Results flagged for a closer look

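Dixon's ratio was applied to 220 groups of 4 arrays to find a sample far from its group. These were all 5 stages of the probe sets of the 3 genes, of the called list genes, of the brightest markers of other cells and of the genes most like each of the 3. Listed or neighbouring genes that did not pass, such as Stfa2l1, Ctsc and Ocln, were not covered. Dixon's ratio marked 15, and chance marks about 1 in 20 groups. Among the 3 genes, Csta1 in 2-cell replicate 2 was low at 1.7, with the others at 22.8 to 26.6, and the dim Tmprss2 probe set 1459510_at in blastocyst replicate 3 was high at 79.3, with the others at 16.3 to 19.8.

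Among the companions in oocytes, Ptges was high in replicate 2 at 114.6 (others 29.7 to 43.8) and Efhd2 in replicate 4 at 102.3 (others 57.1 to 62.3). At the 2-cell stage Ctsh was high in replicate 1 at 1546.2 (others 989.0 to 1077.9), as was Cldn12 at 415.9 (others 250.6 to 275.1). Ptges was low in 2-cell replicate 3 at 7.3 (others 32.7 to 34.3) and Foxl2 was high there at 665.6 (others 543.0 to 556.2). At the 8-cell stage Psenen was high in replicate 2 at 2470.3 (others 1991.2 to 2032.5), Lefty2 in replicate 4 at 131.3 (others 10.6 to 11.4) and Tmem125 in replicate 1 at 66.0 (others 23.8 to 28.5). In 8-cell replicate 3, Klf17 was low at 1976.7 (others 2233.6 to 2280.7) and so was Amhr2 at 624.3 (others 798.8 to 834.5). In blastocysts Afdn was high in replicate 2 at 1294.3 (others 950.8 to 1007.6) and Klf17 in replicate 1 at 152.4 (others 72.9 to 76.5).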

How the results depend on the processing

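Many of the 261 recomputed fits of the tested steps could not move the log2 change of the 3 genes. Leaving out an array of a stage outside the comparison did not alter it. Another filter, no intensity trend or a replicate block did not alter it either. In those fits only the SE and the adjusted p could differ. Over all 261 fits, the calls for the 3 genes kept their direction and side of the threshold in 260. The exception was the Tmprss2 step from 2-cell to 8-cell, never called, which ran from -0.43 to 0.02 with single arrays left out. Under the other alternatives the Csta1 rise into the 8-cell stage ran from 0.94 to 2.45 (limma, adjusted p 0.000112 to 0.000721), the Epcam rise into the 2-cell stage from 0.97 to 1.39 (adjusted p 0.000158 to 0.00443) and into the 8-cell stage from 0.93 to 1.25 (adjusted p 0.000359 to 0.0114). The Csta1 difference into the blastocyst, 4.57, was 4.04 with a pseudocount of 80 and 4.97 after quantile normalization. Counts of called probe sets stayed within 1.5 times except those higher at the 1-cell stage, 406, which became 612 with array weights and ran from 257 to 438 with single arrays left out. The cause was not tested. Same-numbered samples did not deviate together over the tested probe sets (r from -0.062 to 0.063 over 16 pairs, 4 of them best matched to their own number). A pairing that touches few probe sets would not show in this check. The main fit held no replicate block. With a replicate block 402 probe sets were higher at the 1-cell stage, the Csta1 rise was 1.77 with an adjusted p of 0.000263, and the Epcam rises were 1.19 and 1.02 with adjusted p-values of 0.00136 and 0.0043. Of 540 list counts 527 stayed within 1.5 times. Beside those given above, the cystatin and cathepsin falls became 2 with a pseudocount of 80, a 75th percentile filter or no intensity trend, and without x_at and s_at probe sets the inner cell mass falls became 1. Low signal near background limits what can be said of Csta1 before the 8-cell stage and of the second Tmprss2 probe set at any stage.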
